A study of Mus musculus with 16 samples.

Results

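The genes described here are the nuclear genes for subunits of the oxidative phosphorylation complexes of mitochondria, in lungs and livers of newborn mice that carry a *Man1a2* deletion or not. Members were chosen by a rule on their symbols that used no measured value, though earlier results of these data were known at the time. Of the 25054 genes in the count table, 84 matched the symbol families of complexes I to V (Nduf with a, b, c, s or v, Sdha to Sdhd, Uqcr, Cox4 to Cox8 and Atp5), after assembly factors and pseudogenes were taken out. They comprise 35 genes of complex I, 4 of complex II, 8 of complex III, 19 of complex IV and 15 of complex V, where *Ndufa4* and *Ndufa4l2* are placed with complex IV. The remaining genes were *Cox7a2l* and the 2 genes *Atp5s* and *Atp5sl* that match the symbol family but are not subunits of the ATP synthase. *Cox7a2l* is known for a factor that joins complexes III and IV into supercomplexes, a function not examined in these pups. The mitochondrially encoded subunits were not analysed here.

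Oxidative phosphorylation takes electrons from NADH at complex I and from succinate at complex II, passes them through complex III to complex IV, where oxygen is reduced, and uses the proton gradient built on the way to make ATP at complex V. Most subunits are encoded in the nucleus and imported, and a few at the catalytic centre are encoded by mitochondrial DNA. Hepatocytes are rich in mitochondria, while several complex IV subunits exist as isoforms that differ between tissues: *Cox4i2* is known from lung and from pericytes and smooth muscle, *Cox6a2*, *Cox7a1* and *Cox8b* from heart and skeletal muscle, and *Cox6b2*, *Cox7b2* and *Cox8c* from testis.

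The series holds 16 libraries from C57BL/6J pups, 1 library for each of 4 pup groups, 2 treatments of the parents and 2 labelled tissues. The 2 groups of live pups were wild-type (WT) or heterozygous and the 2 groups of dead pups heterozygous or null, where null pups lacked exon 2 of both copies of *Man1a2*, a mannosidase gene of N-glycan processing, and heterozygous pups lacked it from 1 copy. All parents were heterozygous and were given N-acetyl cysteine (NAC, an antioxidant and glutathione precursor, at up to 1 g/kg body weight) or placebo water from before mating until delivery, and pups were watched for 24 h, so that the dead pups had died within this time and the live pups were killed at its end. Each library was made with a stranded poly(A) kit from RNA of 3 experiments, or 2 for dead heterozygous pups. A library is thus a pool, and by label no group had a replicate of its own. Every p-value therefore measures the spread between pooled libraries that share a content and not between animals. In whole tissue, fewer cells of a type and less RNA per cell cannot be told apart. Whole-gene *Man1a2* levels were 34.3 to 60.3 in the 4 null libraries and 29.7 to 75.4 in the other 12 (CPM after TMM scaling, here called scaled CPM, where CPM sets the counts of a gene against the library total), but reads of the remaining exons count towards them, so they check nothing about the deletion.

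The labelled tissue did not match the marker genes in many libraries, so libraries were grouped by what they held. Libraries with at least 1000 CPM of *Sftpc* (surfactant protein C) and under 1000 CPM of *Alb* (albumin) are called lung-content, and those with at least 50000 CPM of *Alb* liver-content. By this rule 7 libraries were lung-content, of which 4 were labelled liver, 8 were liver-content, of which 4 were labelled lung, and the dead null placebo library labelled lung held both. The content went with the label in 7 libraries and against it in 8. Both dead null NAC libraries, labelled lung and liver, were liver-content. They share a pup group and a treatment, and were entered in the fits as separate libraries. Summed scaled CPM of 10 lung markers was 10472 to 16844 in lung-content, 32.3 to 61.7 in liver-content and 10980 in the mixed library, and that of 10 liver markers was 19.3 to 200, 138049 to 238640 and 19392. Depth was 7236865 to 11808823 counts in lung-content and 14115802 to 16107749 in liver-content libraries, and the ribosomal RNA symbol *Rn45s* took 4.05 to 26.2% and 0.845 to 6.29% of the counts.

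Nuclear oxidative phosphorylation genes were lower in lung-content than in liver-content libraries in all 5 complexes. Their summed level was 4104 to 4808 scaled CPM (median 4500) over the 7 lung-content libraries and 10527 to 17277 (median 12771) over the 8 liver-content libraries, 2.84 times as much by the medians, and 6399 in the mixed library. All 7 lung-content libraries lay below all 8 liver-content libraries. As a share of the deposited counts, without TMM scaling, the sum was 0.450 to 0.656% against 0.800 to 1.46%. Such a share is scaled by library size and depends on what else fills the library, such as *Rn45s*.

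Of the 84 genes, 81 reached a mean of 1 CPM and were tested. With edgeR's quasi-likelihood test and Benjamini-Hochberg adjustment over 14175 genes, 76 were lower and 2 higher in lung-content libraries at an adjusted p under 0.05. Over all genes tested, 40.6% were lower and 35.8% higher. The median log2 difference of the members was −1.57, with a median standard error (SE) of 0.154 for a single member, against −0.10 over all genes. At least 2-fold lower were 73 of the 81 (90.1%), as were 26.0% of all genes. These sizes moved with the scaling, since all genes shifted along with the members. By library size alone 34 members (42.0%) were called and at least 2-fold lower, against 16.1% of all genes, and without *Rn45s* in the library size 22 (27.2%), against 14.2%. At least 4-fold lower were 14 members (17.3%), a share near the 12.99% of all genes. The ranges of 73 members did not overlap, with all lung-content libraries below all liver-content ones, which was also the case for 26.3% of all genes tested. Erythroid markers were lower in lung-content libraries as well, with 9 of 9 symbols past the test (11 rows, as the table holds 2 rows each for *Hba-a1* and *Hba-a2*), with a sum of 7523 to 19283 scaled CPM against 11350 to 74047. Their part in the difference of the members was not tested.

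**Figure D1:**
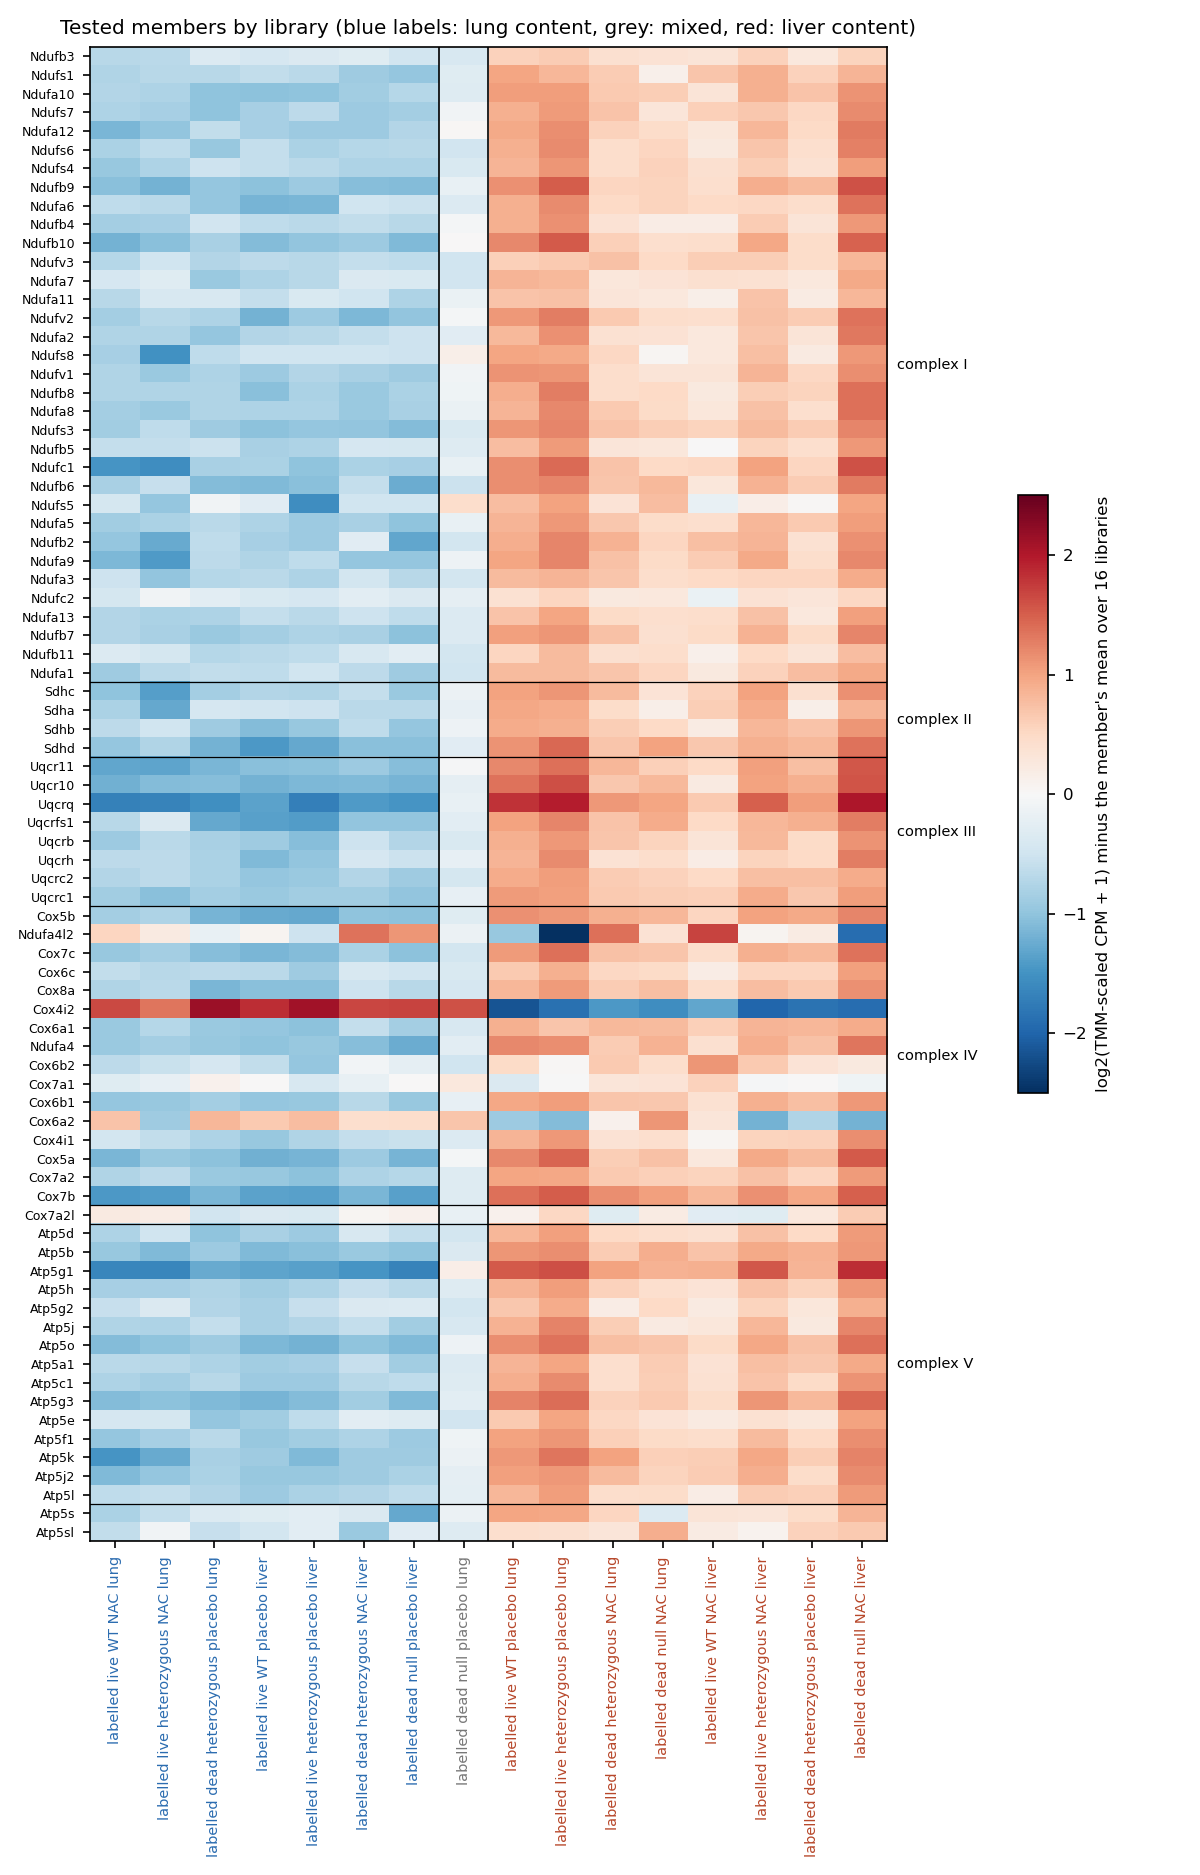
Level of 80 tested members (lines, by complex) in each of the 16 libraries (columns, lung content in blue, mixed in grey and liver content in red lettering), as log2 of scaled CPM plus 1 minus the member's mean over the libraries. The 7 lung-content libraries are below the 8 liver-content libraries for 72 of the members drawn and above them for *Cox4i2*.

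Complex I, the NADH dehydrogenase, had 35 of 35 subunits lower in lung-content libraries, with a median log2 difference of −1.56. Several of these calls were lost by library size alone or without *Rn45s* in the library size. *Ndufs1*, the iron-sulfur subunit of the electron entry module, ran from 38.7 to 49.3 scaled CPM (median 46.9) in lung-content and from 83.1 to 153 (median 131) in liver-content libraries, and the difference was −1.51 ± 0.12 (log2 ± SE, edgeR adjusted p = 7.84e-08). *Ndufv1*, which binds NADH and FMN, ran from 44.0 to 50.6 (median 47.9) and from 106 to 191 (median 137). The ranges of lung-content and liver-content libraries did not overlap for either gene. Among all complex I members the change was largest for the accessory subunit *Ndufc1* (−2.13 ± 0.21) and smallest for *Ndufc2* (−0.65 ± 0.12), whose lung-content range of 40.1 to 51.4 met the liver-content range of 48.6 to 79.8. *Ndufc2* was not called by library size alone (−0.0044, edgeR adjusted p = 0.980) or without *Rn45s* in the library size (0.18, edgeR adjusted p = 0.243).

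Complex II, succinate dehydrogenase, which also is an enzyme of the tricarboxylic acid cycle, had 4 of 4 subunits lower. The flavoprotein subunit *Sdha* ran from 67.1 to 122 scaled CPM (median 102) in lung-content and from 182 to 320 (median 273) in liver-content libraries (−1.35 ± 0.15, edgeR adjusted p = 1.72e-06). The iron-sulfur subunit *Sdhb* ran from 40.6 to 61.3 (median 46.2) and from 101 to 188 (median 150). The membrane anchor *Sdhd* had the largest change of the complex (−2.13 ± 0.16). The groups did not overlap for any of these 3 genes.

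Complex III, the cytochrome bc1 complex, had 8 of 8 subunits lower and the largest median of the 5 complexes (−1.86). *Uqcrq*, a small accessory subunit, had the largest decrease of all members: it ran from 23.5 to 30.8 scaled CPM (median 26.5) in lung-content and from 124 to 325 (median 196) in liver-content libraries, 8.40-fold lower (−3.07 ± 0.23, edgeR adjusted p = 4.14e-08). The core subunit *Uqcrc1* ran from 74.9 to 85.9 (median 84.2) and from 234 to 328 (median 272). The Rieske iron-sulfur protein *Uqcrfs1* ran from 43.2 to 89.8 (median 57.8) and from 165 to 281 (median 218). The complex III member with the smallest change was *Uqcrh* (−1.44 ± 0.18), at −0.79 by library size alone and −0.61 without *Rn45s* in the library size.

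Complex V, the ATP synthase, had 15 of 15 subunits lower. Without *Rn45s* in the library size, *Atp5e* and *Atp5g2* were not called (−0.31 and −0.25, edgeR adjusted p = 0.129 and 0.164). The catalytic beta subunit *Atp5b* ran from 402 to 463 scaled CPM (median 431) in lung-content and from 1352 to 1956 (median 1657) in liver-content libraries (−1.95 ± 0.14, edgeR adjusted p = 1.74e-08). The alpha subunit *Atp5a1* ran from 344 to 423 (median 371) and from 810 to 1259 (median 1039). Both had narrow ranges that lay far apart. *Atp5s*, a coupling factor, and *Atp5sl*, a factor of complex I assembly, differed by −1.38 ± 0.27 and −1.03 ± 0.16, although neither is a subunit of this enzyme. Without *Rn45s* in the library size neither was called (−0.54 and −0.19, edgeR adjusted p = 0.116 and 0.258). *Atp5s* was not called by library size alone either (−0.71, edgeR adjusted p = 0.0513).

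Complex IV, cytochrome c oxidase, was the only complex with members that were higher in lung-content libraries or not called. Of its 16 tested genes 12 were lower, 2 higher and 2 not called. The main isoform of subunit 4, *Cox4i1*, ran from 146 to 203 scaled CPM (median 184) in lung-content and from 291 to 626 (median 416) in liver-content libraries (−1.36 ± 0.17, edgeR adjusted p = 6.32e-06). *Cox5a*, a core nuclear subunit, ran from 30.2 to 37.2 (median 31.5) and from 84.6 to 206 (median 130). *Cox7b*, a small subunit with the largest decrease in this complex, ran from 38.02 to 46.5 (median 40.2) and from 185 to 298 (median 232), 5.84-fold lower (−2.55 ± 0.14). The widely expressed isoforms *Cox6a1*, *Cox6b1*, *Cox7a2* and *Cox8a* were all lower and close to each other, by −1.65 ± 0.10, −1.75 ± 0.12, −1.61 ± 0.12 and −1.63 ± 0.14.

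**Figure D2:**
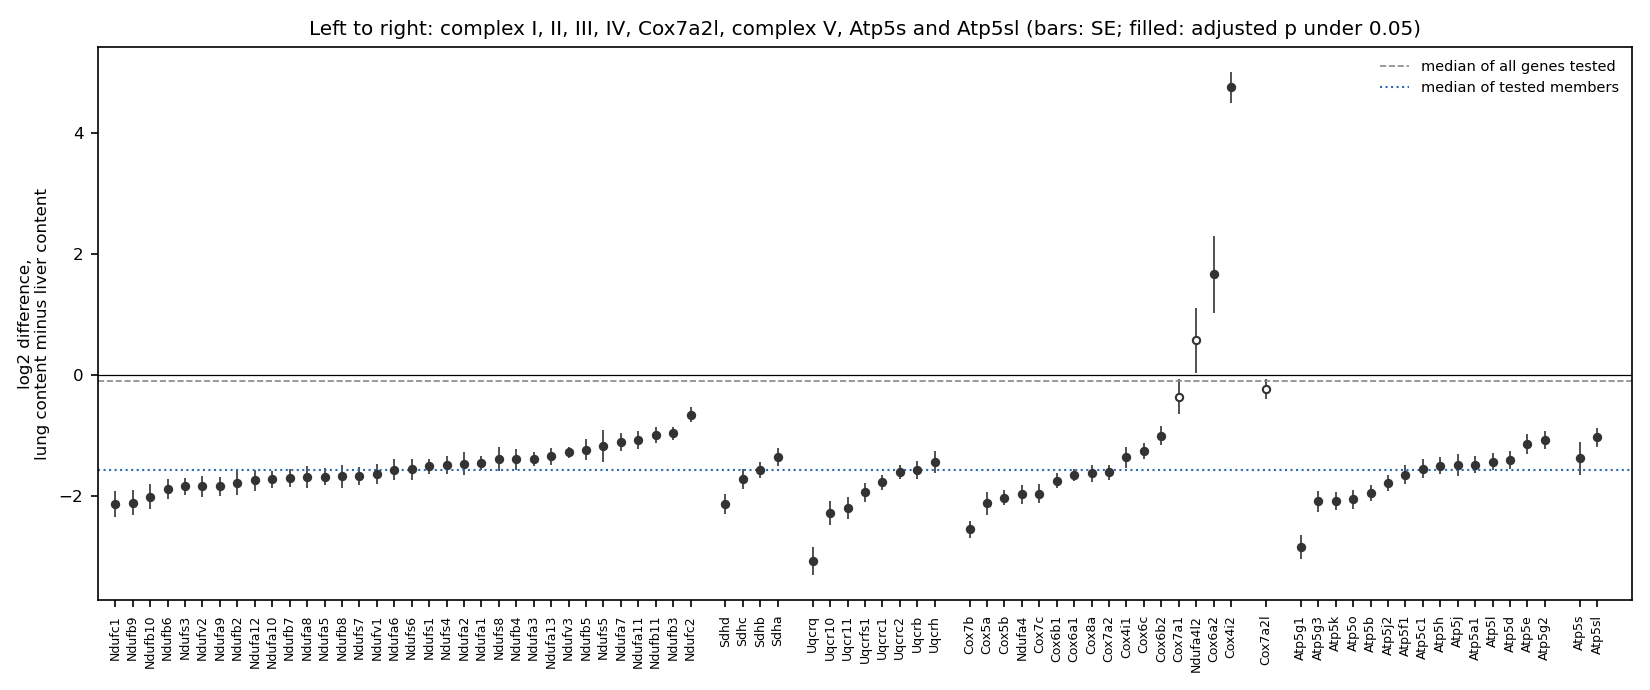
Log2 difference (lung-content minus liver-content libraries, edgeR, bars for SE) of 80 tested members, sorted within each complex, with filled points for an adjusted p under 0.05, a dashed line at the median of all genes tested (−0.10) and a dotted line at that of the members (−1.57). *Cox4i2* (4.75) and *Cox6a2* (1.66) are the filled points above 0.

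Expressed per kilobase of transcript, so that genes can be compared, *Cox4i1* and *Atp5b* were the most abundant members in both contents. *Cox4i1* was the highest in lung-content (median 247 scaled CPM per kilobase) and the second in liver-content libraries (558), and *Atp5b* the second in lung-content (225) and the highest in liver-content (865). The median member of complex V stood at 109 and 264, that of complex III at 66.5 and 250, that of complex IV at 48.9 and 202, that of complex II at 37.8 and 113, and that of complex I at 32.5 and 83.4. Complex I and complex V were thus the lowest and the highest in both contents. *Uqcrq* moved from rank 29 in lung-content to rank 4 in liver-content libraries, and *Cox7a2l* from rank 5 to rank 33.

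*Cox4i2*, the isoform of subunit 4 known from lung, went the other way from *Cox4i1*. It ran from 13.9 to 24.8 scaled CPM (median 17.8) in lung-content and from 0.318 to 1.39 (median 0.629) in liver-content libraries, with 16.7 in the mixed library. It was 26.9-fold higher in lung-content libraries (4.75 ± 0.25, edgeR adjusted p = 1.12e-09), and the raw counts behind this were 100 to 381 against 4 to 15. Per kilobase, *Cox4i2* made up 7.19 to 13.5% (median 8.84%) of the pair in lung-content and 0.0642 to 0.487% (median 0.138%) in liver-content libraries. All lung-content libraries were higher than every liver-content library in level and in share. Markers of pericytes and smooth muscle were higher in lung-content libraries too, 8 of 9 past the test, as were 35.8% of all genes tested. Their summed level was 538 to 723 scaled CPM against 86.7 to 182. The pericyte markers *Higd1b* and *Cspg4* were at 9.06 to 18.9 and 15.6 to 51.3 in lung-content against 0 to 0.251 and 0.0796 to 2.28 in liver-content libraries. Of the other markers, *Kcnj8* differed by only 0.90 ± 0.23 and *Abcc9* was not called (−0.18, edgeR adjusted p = 0.450). The part of these cells in the *Cox4i2* difference was not tested.

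The muscle isoforms were weakly expressed. *Cox6a2*, the heart and skeletal muscle isoform of subunit 6a, ran from 0.418 to 3.64 scaled CPM (median 3.13) in lung-content and from 0.159 to 4.66 (median 0.477) in liver-content libraries, and was called higher in lung-content (1.66 ± 0.63, edgeR adjusted p = 0.0274). The raw counts were 3 to 59 and 2 to 47. The ranges overlapped, and the call was lost in 7 of the 27 alternative settings that kept the gene. In 4 of them 1 library was left out, and these libraries were the live WT NAC, live heterozygous placebo (both labelled lung), dead heterozygous NAC and dead heterozygous placebo (both labelled liver) libraries, with edgeR adjusted p of 0.0871, 0.0616, 0.0732 and 0.0677. Over the 27 settings its adjusted p ran from 0.000722 to 0.398. Cardiac markers moved with it: 7 of 7 tested were higher in lung-content libraries, as were 35.8% of all genes tested. Their summed level was 140 to 466 scaled CPM against 7.39 to 81.9, and *Myh6*, the atrial myosin heavy chain, was at 47.8 to 203 against 0 to 0.396. Skeletal muscle markers went the other way for 5 of 7, as did 40.6% of all genes, with a sum of 22.7 to 64.9 against 9.38 to 1054. Within liver-content, however, the 4 libraries with at least 100 scaled CPM of skeletal muscle markers had *Cox6a2* at 4.66, 2.22, 1.84 and 0.557. The other 4 had it at 0.397, 0.233, 0.162 and 0.159. The part of muscle tissue in the *Cox6a2* difference was not tested. *Cox7a1*, another muscle isoform, ran from 0.607 to 1.27 and from 0.635 to 2.13 (−0.36, edgeR adjusted p = 0.266). *Cox8b* had 123 counts over all 16 libraries and was below the filter.

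The testis isoforms differed among themselves. *Cox6b2* was detected in every library, at 4.42 to 9.22 scaled CPM (median 6.27) in lung-content and 9.93 to 21.9 (median 13.6) in liver-content libraries (−1.003 ± 0.16, edgeR adjusted p = 4.74e-05), with no overlap. The call depended on the scaling. It was lost by library size alone (−0.34, edgeR adjusted p = 0.111) and without *Rn45s* in the library size (−0.15, edgeR adjusted p = 0.376). *Cox7b2* had 4 counts in total and none in 14 libraries. *Cox8c* had 0 counts in all 16 libraries, which allows up to 3 counts for each library (counting error only).

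*Ndufa4l2*, the paralog of the complex IV subunit *Ndufa4* that is known as a target of hypoxia-inducible factor, varied more between libraries than it differed between contents. It ran from 19.3 to 73.4 scaled CPM (median 32.7) in lung-content and from 1.94 to 92.6 (median 30.8) in liver-content libraries (0.57 ± 0.54, edgeR adjusted p = 0.349), while *Ndufa4* ran from 43.0 to 56.4 (median 52.4) and from 136 to 259 (median 189) and was lower (−1.97 ± 0.15). Within liver-content, the 4 libraries with at least 100 scaled CPM of skeletal muscle markers had *Ndufa4l2* at 92.6, 73.6, 36.1 and 32.1, and the other 4 at 29.4, 14.0, 6.68 and 1.94. These sets did not overlap, and 12.7% of all genes tested were separated in this direction too. Without those 4 libraries *Ndufa4l2* was called higher in lung-content (2.48 ± 0.55, edgeR adjusted p = 0.00171, against a range of 0.00171 to 0.707 over all settings). That fit was chosen after seeing the data and leaves out the 4 highest liver-content values, so no conclusion is drawn from its call. *Ndufa4l2* was called higher as well by library size alone (1.25, adjusted p = 0.0409), without *Rn45s* in the library size (1.44, adjusted p = 0.0214) and with pup group in the model in place of survival (1.10, adjusted p = 0.0332). The part of skeletal muscle RNA in this was not tested.

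*Cox7a2l*, placed here as a supercomplex factor, was the tested member with the smallest difference: it ran from 123 to 202 scaled CPM (median 179) in lung-content and from 140 to 270 (median 193) in liver-content libraries (−0.23 ± 0.16, edgeR adjusted p = 0.22). Its direction depended on the scaling. It was higher in lung-content libraries by library size alone (0.42, edgeR adjusted p = 0.0401) and without *Rn45s* in the library size (0.60, adjusted p = 0.00557), and lower without the 4 libraries with skeletal markers (−0.53, adjusted p = 0.0124). The share within a library does not depend on scaling. Per kilobase, *Cox7a2l* made up 64.2 to 72.2% (median 69.8%) of the sum of *Cox7a2l* and its relative *Cox7a2* in lung-content and 38.9 to 51.6% (median 45.4%) in liver-content libraries, without overlap.

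Subunit c of the ATP synthase, which forms the rotating ring in the membrane, comes from 3 genes that encode the same mature protein, and their balance differed between contents. *Atp5g1* ran from 22.6 to 30.1 scaled CPM (median 26.0) in lung-content and from 134 to 266 (median 183) in liver-content libraries, 7.18-fold lower (−2.84 ± 0.20). *Atp5g2* ran from 63.0 to 88.2 (median 74.8) and from 126 to 212 (median 161), with the smallest change of complex V (−1.08 ± 0.15). Its call was lost without *Rn45s* in the library size (−0.25, edgeR adjusted p = 0.164). *Atp5g3* ran from 79.2 to 97.1 (median 83.0) and from 246 to 484 (median 346) (−2.08 ± 0.17). Per kilobase, *Atp5g2* gave 48.3 to 57.6% of the 3 genes in lung-content and 30.5 to 37.7% in liver-content libraries, *Atp5g1* 9.42 to 14.2% and 20.6 to 25.8%, and *Atp5g3* 33.0 to 37.5% and 41.0 to 46.4%. None of these shares overlapped between contents. Transcripts of *Atp5g1* match the gene *Gm10039* over 411 bases at 99.8% identity, and those of *Atp5g2* match *Gm10175* and *Gm10231* over 441 bases at 100%, so reads can be split between such copies and these levels are uncertain to that extent. In all, 34 members match another gene or a pseudogene at 95% identity or more over at least 100 bases. The median log2 difference was −1.56 over the 21 members with a pseudogene match and −1.57 over the 47 tested members with no match.

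**Figure D3:**
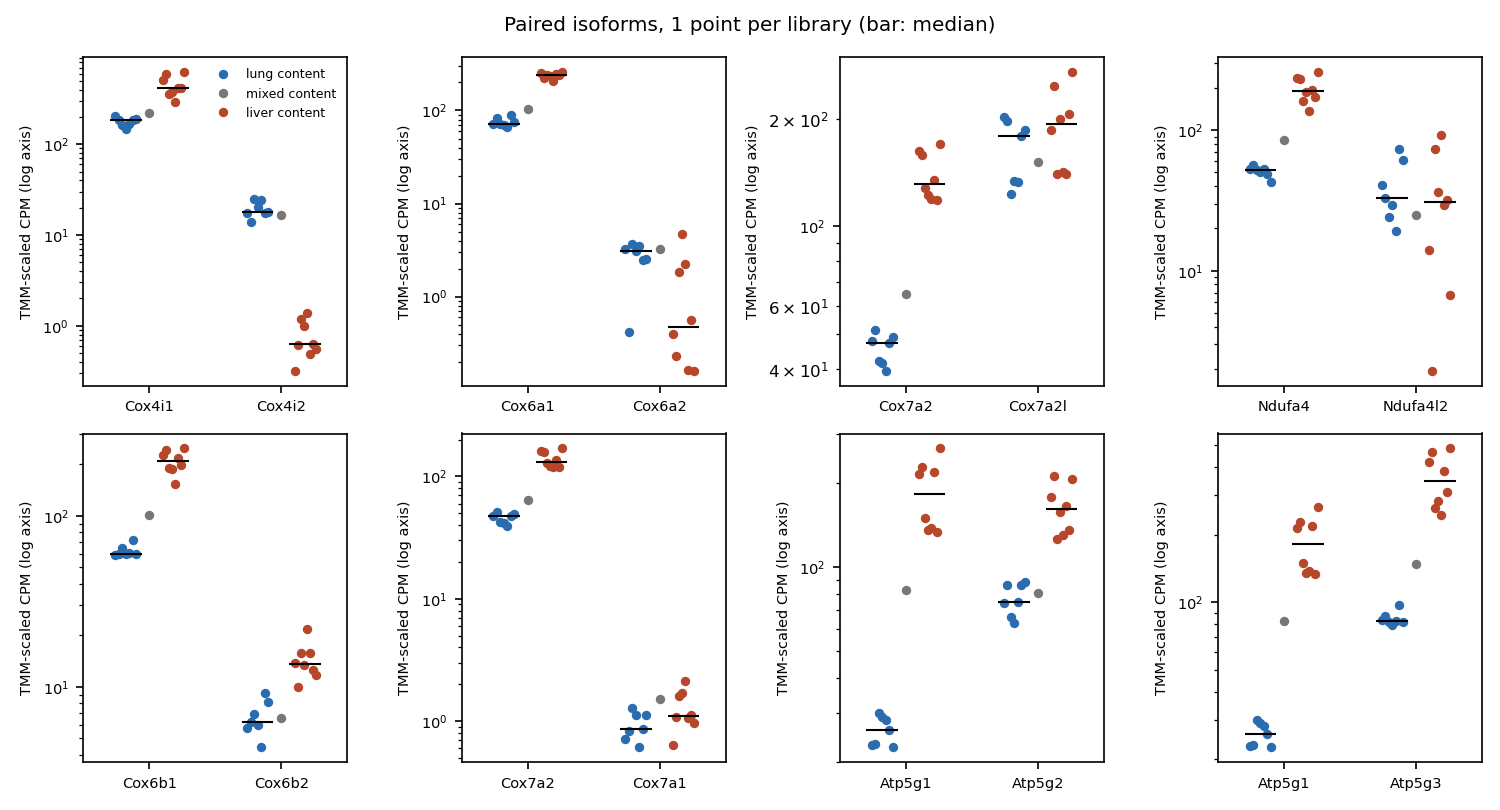
Scaled CPM (log axis) of paired isoforms, with 1 point for each library, lung content in blue, mixed in grey and liver content in red, and a bar at the median of each content. *Cox4i2* lies at 13.9 to 24.8 in lung-content and 0.318 to 1.39 in liver-content libraries, opposite to *Cox4i1* beside it, and the points of *Ndufa4l2* and *Cox7a2l* overlap between contents.

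The promoters of these genes are known for sites of NRF1, ETS factors such as GABP, YY1 and estrogen-related receptors (ERR), and sequence was therefore shown for members whose promoter held such letters and for members that did not. RefSeq windows on GRCm38.p6, from 250 bases before to 50 after the start of the gene, were matched for 66 of the 84 members. The 170 bases before the RefSeq start are printed 5′ to 3′ on the strand of the gene, with matches of either strand in capitals. The core letters searched were GCGCATGC for NRF1, CCGGAAG for ETS, AAGATGGCG for YY1 and AAGGTCA for ERR. The first 3 sequences hold NRF1 and ETS letters in a complex IV gene, ETS letters in a complex III gene and ERR letters in a complex V gene. The last 2, *Cox7b* with the largest decrease of complex IV and *Cox7a2l* with no called difference, hold none of the 4. In the GENCODE annotation 1 transcript each of *Cox6a1* and *Uqcrh* starts 23 bases and 1 base farther upstream, so that these last bases of their windows are exonic there, and 1 of 4 transcripts of *Cox7a2l* starts 2997 bases upstream of the RefSeq start.
Cox6a1 (chr5:115348959-115349128, minus strand): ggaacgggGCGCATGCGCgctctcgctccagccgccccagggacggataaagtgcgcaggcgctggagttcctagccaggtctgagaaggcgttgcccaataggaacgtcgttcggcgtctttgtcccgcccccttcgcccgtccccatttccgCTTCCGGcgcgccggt
Uqcrh (chr4:116075071-116075240, minus strand): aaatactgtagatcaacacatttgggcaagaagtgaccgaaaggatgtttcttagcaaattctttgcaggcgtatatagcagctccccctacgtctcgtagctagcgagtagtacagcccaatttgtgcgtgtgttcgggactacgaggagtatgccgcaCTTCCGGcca
Atp5g3 (chr2:73911327-73911496, minus strand): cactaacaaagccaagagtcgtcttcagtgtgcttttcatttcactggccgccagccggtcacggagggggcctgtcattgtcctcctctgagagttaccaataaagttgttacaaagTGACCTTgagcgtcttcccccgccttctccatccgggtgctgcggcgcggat
Cox7b (chrX:106015530-106015699, plus strand): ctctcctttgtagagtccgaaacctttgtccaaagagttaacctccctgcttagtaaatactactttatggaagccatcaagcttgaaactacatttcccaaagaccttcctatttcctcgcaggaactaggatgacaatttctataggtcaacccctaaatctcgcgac
Cox7a2l (chr17:83514334-83514503, minus strand): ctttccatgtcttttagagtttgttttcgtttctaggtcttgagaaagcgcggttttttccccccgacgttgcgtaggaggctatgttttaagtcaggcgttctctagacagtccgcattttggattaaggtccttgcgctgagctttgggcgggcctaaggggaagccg

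In *Cox6a1* the NRF1 letters begin 162 bases before the start, where a second match on the other strand overlaps them, and the ETS letters begin 16 bases before it. In *Uqcrh* the ETS letters begin 10 bases and in *Atp5g3* the ERR letters 52 bases before the start. Over the 66 members with a window, both strands counted, NRF1 letters were in 10 (15.2%, against 3.05% of 27025 genes), ETS letters in 16 (24.2% against 9.93%), YY1 letters in 7 (10.6% against 1.64%) and ERR letters in 8 (12.1% against 5.38%). The SP1 letters GGGCGG were in 26 (39.4% against 38.2%). The median log2 difference between contents was nearly the same with and without each motif: −1.61 and −1.65 for NRF1, −1.64 and −1.65 for ETS, −1.67 and −1.63 for YY1, −1.61 and −1.64 for ERR, and −1.61 and −1.67 for SP1. These are matches of letters and not sites shown to be bound.

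Genes that build and maintain the same machinery were described from fixed lists, where 40.6% of all genes tested were lower in lung-content libraries. All 77 tested genes of the mitochondrial ribosome, which translates the mitochondrially encoded subunits, were lower in lung-content libraries, with a median log2 difference of −1.43 and a summed level of 983 to 1160 against 2168 to 3705 scaled CPM. All 13 enzymes of the tricarboxylic acid cycle, which feeds complexes I and II, were lower (median −1.28), from succinyl-CoA ligase *Suclg1* (−2.56 ± 0.20) to citrate synthase *Cs* (−0.46 ± 0.13). Of 43 assembly factors 40 were lower (median −1.13), among them *Ndufaf6* of complex I (−2.38 ± 0.27) and the copper chaperone *Cox17* of complex IV (−1.76 ± 0.12). The lists went the same way as the subunits, with smaller medians. Of 13 tested transcriptional regulators of mitochondrial genes 8 were lower and 5 not called (median −0.81). The coactivators *Ppargc1b* and *Ppargc1a* differed by −2.95 ± 0.47 and −1.16 ± 0.18, the mitochondrial transcription factor *Tfam* by −1.45 ± 0.16 and the receptor *Esrra* by −0.98 ± 0.18. *Nrf1* and the GABP subunit *Gabpa* were at −0.30 ± 0.16 and 0.12 ± 0.14 and were not called.

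The spread within each content was wider in liver-content libraries. The coefficient of variation of a member had a median of 10.7% over the 7 lung-content libraries, from 3.60% for *Uqcr10* to 49.9% for *Ndufa4l2*, and of 21.3% over the 8 liver-content libraries, from 7.11% for *Cox6a1* to 124% for *Cox6a2*. The liver-content libraries split by other tissues' markers. In the 4 with at least 100 scaled CPM of skeletal muscle markers, the muscle sum was 162 to 1054 and the erythroid sum 52432 to 74047, and the members summed to 10527 to 11983. In the other 4, the muscle sum was 9.38 to 41.8, the erythroid sum 11350 to 51727 and the members 13559 to 17277. The first set was lower in each of the 5 complexes without overlap. Of the 81 tested members 57 were lower in all 4 libraries of the first set than in all 4 of the second and 4 were higher, as were 17.2% and 12.7% of all genes tested. The first set holds 3 of 5 NAC and 1 of 3 placebo libraries, and 3 of 4 dead and 1 of 4 live ones, so it is partly confounded with treatment and survival. The part of muscle, blood cells or depth in this split was not tested.

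**Figure D4:**
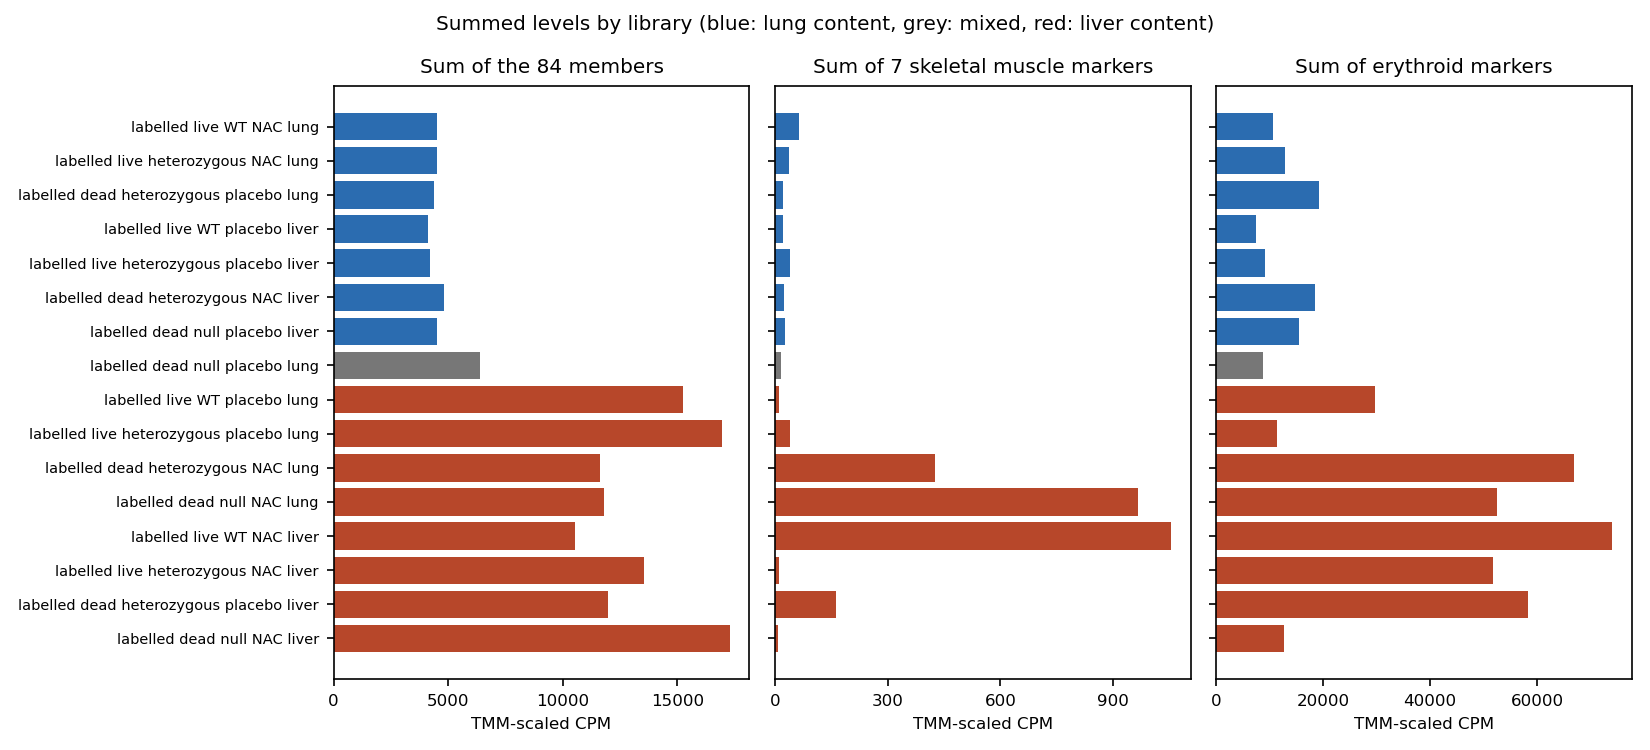
Summed scaled CPM of the 84 members, of 7 skeletal muscle markers and of the erythroid markers in each library (bars, lung content in blue, mixed in grey, liver content in red). The members sum to 4104 to 4808 in lung-content and 10527 to 17277 in liver-content libraries, where the 4 with long skeletal muscle bars are the lowest at 10527 to 11983.

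NAC was compared with placebo within each content, with survival of the pups, but not genotype, in the model. The only null library of lung content was a placebo library, and all null libraries of liver content were NAC libraries. The null genotype is thus partly confounded with treatment within each content, in opposite directions. In lung-content libraries (3 NAC, 4 placebo) 0 of 81 members were called by edgeR, and 0 by DESeq2. Over all genes 0.825% were higher and 0.437% lower. By edgeR 1 member was at an unadjusted p under 0.05, against 23.9% of all genes. The members' median log2 difference was 0.06, with 50 of 81 above 0 and a median SE of 0.218. This member was *Uqcrfs1*, at 71.2, 89.8 and 57.8 scaled CPM in the NAC libraries and 46.9, 44.9, 43.2 and 57.8 in the placebo libraries (0.59, edgeR adjusted p = 0.136). The groups met at 57.8, and *Uqcrfs1* was called when only live pups were used (0.85 ± 0.17, edgeR adjusted p = 0.0206). In liver-content libraries (5 NAC, 3 placebo) 0 members were called by edgeR and 0 by DESeq2, against a background of 0% in either direction, with 0 at an unadjusted p under 0.05 (3.68% of all genes). The median was −0.16, with 12 of 81 above 0, and it rested on single libraries: without the live WT NAC library labelled liver it was −0.0038, with 39 above 0, and without the dead heterozygous placebo library labelled liver −0.41, with 6 above 0. In live pups only it was −0.42, with 6 above 0 and 46 at an unadjusted p under 0.05 (17.6% of all genes), and 0 after adjustment. The NAC effect of the 2 contents differed for 0 members by edgeR and DESeq2 (background 0%), with a median difference of 0.22, which ran from 0.06 without the first of these libraries to 0.54 without the second. At an unadjusted p under 0.05 were 4 members, a smaller share than the 13.7% of all genes, and these were *Uqcrfs1* (0.80), *Cox7a2l* (0.80), *Ndufb6* (0.71) and *Cox4i2* (−1.16).

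Among the lists of related genes, 1 gene was called in the NAC comparison, the regulator *Ppargc1a* in lung-content libraries. The genes tested were 43 assembly factors, 13 regulators, 13 tricarboxylic acid cycle enzymes and 77 genes of the mitochondrial ribosome. The shares called over all genes were 0.825% higher and 0.437% lower, so 1 call among these lists lies near them. *Ppargc1a* encodes a coactivator that drives mitochondrial gene expression. It was at 14.0, 17.3 and 34.2 scaled CPM in the NAC libraries and at 8.14, 7.42, 5.29 and 10.7 in the placebo libraries, without overlap (1.53 ± 0.25, edgeR adjusted p = 0.0415). The call was kept in 18 of 26 alternative settings, with log2 differences from 1.29 to 1.72 and adjusted p from 4.52e-05 to 0.1995. It was lost by library size alone and on leaving out any of 7 libraries in turn, the live WT placebo, live heterozygous NAC and dead heterozygous placebo libraries labelled lung and the live WT placebo, live heterozygous NAC, live heterozygous placebo and dead heterozygous NAC libraries labelled liver. The subunits themselves did not pass the test in the same libraries.

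Dead pups were compared with live pups in the same way. Tissue was taken on death from dead pups and at 24 h after birth from live pups, so death and age at harvest cannot be told apart. In lung-content libraries (3 dead, 4 live) 0 members were called by edgeR and 0 by DESeq2 (background 0%), with a median of 0.08 and 64 of 81 above 0. The 1 member at an unadjusted p under 0.05 was *Cox6b2* (0.56), as were 2.004% of all genes. In liver-content libraries (4 dead, 4 live) 0 members were called by edgeR and 0 by DESeq2, while 0.134% of all genes were higher and 0% lower, with a median of −0.02 and 35 of 81 above 0. The median ran from −0.20 without the dead null NAC library labelled liver to 0.19 without the dead heterozygous placebo library labelled liver. Here *Sdha* (−0.45) was the 1 member at an unadjusted p under 0.05, against 9.04% of all genes. Without the 4 libraries with skeletal muscle markers the median was 0.38, with 74 above 0, 14 at an unadjusted p under 0.05 (6.03% of all genes) and 0 after adjustment. The dead effect differed between contents for 0 members by edgeR and DESeq2 (background 0% higher and 0.00705% lower), with a median of 0.12 (−0.25 without the libraries with skeletal muscle markers, and −0.08 without the dead heterozygous placebo library labelled liver alone). At an unadjusted p under 0.05 were *Cox6b2* (0.83) and *Atp5sl* (−0.70), against 4.698% of all genes.

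Genotype was compared within survival. Between live heterozygous and live WT pups 0 members were called by edgeR and 0 by DESeq2 (background 0%). The members' median was 0.15 against −0.00 over all genes, 72 of 81 lay above 0, and the 3 at an unadjusted p under 0.05 were *Ndufb10* (0.28), *Atp5g2* (0.26) and *Ndufa4l2* (−1.22), against 5.999% of all genes. Between dead null and dead heterozygous pups 0 members were called by edgeR and 0 by DESeq2, with 0 at an unadjusted p under 0.05 against 1.49% of all genes (background 0% higher and 0.00708% lower). The median was 0.15 against 0.04 over all genes, with a median SE of 0.378 for a single member. Its sign rested on single libraries, as it was −0.06 without the dead heterozygous NAC library labelled lung, −0.03 without the dead null NAC library labelled liver and 0.28 without the dead null placebo library labelled liver. Null pups had no live group and WT pups no dead group, so that the effect of the null genotype and of death cannot be told apart for them.

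The comparison that the labels define sets the NAC library of each pup group and labelled tissue against its placebo library, with 1 library a side and hence no test. In 7 of these 8 comparisons a lung-content library faced a liver-content library, and in the dead null lung comparison a liver-content library faced the mixed one. Under the lung label, 77 of 80 tested members were past 2-fold in live WT pups (3 higher, 74 lower, median −1.77), as were 56% of all genes, and 75 of 79 in live heterozygous pups (2 higher, 73 lower, median −1.90), against 60.4% of all genes. In dead heterozygous pups the direction was the opposite, with 67 of 82 past 2-fold (66 higher, 1 lower, median 1.44, 51.3% of all genes), and in dead null pups 21 of 82 were past it (20 higher, 1 lower, median 0.78, 47% of all genes). In each of them the library with liver content had the higher levels.

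Under the liver label, 63 of 82 members were past 2-fold in live WT pups (62 higher, 1 lower, median 1.31, 50% of all genes) and 74 of 80 in live heterozygous pups (72 higher, 2 lower, median 1.65, 50.4% of all genes). In dead heterozygous pups 56 of 80 were past it (3 higher, 53 lower, median −1.30, 52% of all genes) and in dead null pups 76 of 81 (73 higher, 3 lower, median 1.90, 55.9% of all genes). The beta subunit *Atp5b* was at −2.06, −2.28, 1.55 and 1.28 (log2, NAC minus placebo) under the lung label (live pups first, WT then heterozygous, and then dead pups, heterozygous then null) and at 1.80, 1.99, −1.79 and 2.10 under the liver label. *Cox4i2* had the opposite sign each time, at 5.74, 4.46, −4.39 and −4.06 and at −3.85, −5.61, 4.76 and −4.97. The counts moved with the scaling: by library size alone 5 of 82 members were past 2-fold in live WT pups under the liver label, while 63.6% of all genes were. Treatment and content cannot be told apart in these pairs.

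**Figure D5:**
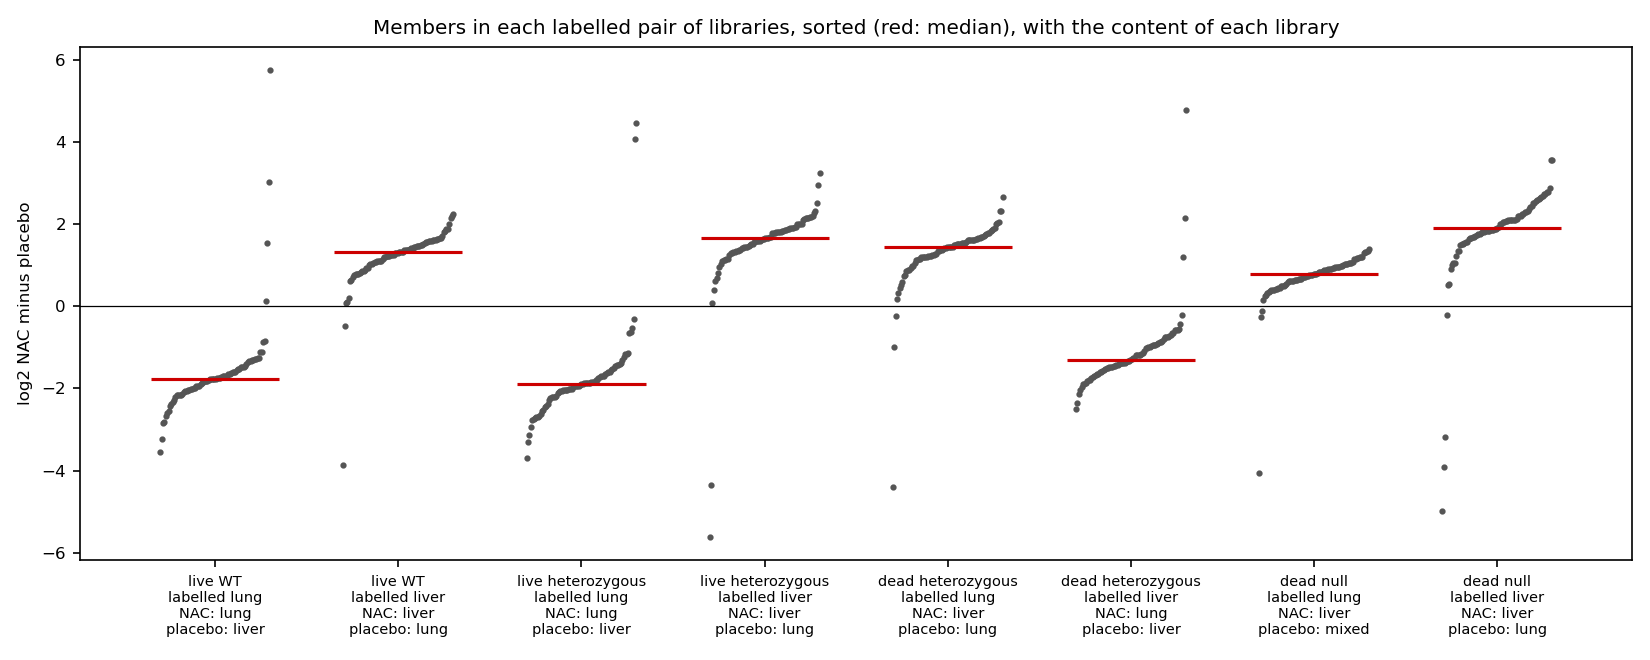
Log2 ratio of the NAC to the placebo library for each tested member (points, sorted) and the median (red line) in the 8 comparisons by label, 1 library a side, with the content of both libraries under each. The medians run from −1.90 in the live heterozygous lung comparison to 1.90 in the dead null liver comparison, and are above 0 where the NAC library has liver content.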

How the data were processed

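Poly(A) RNA of 16 pooled libraries was sequenced on an Illumina NovaSeq. The authors trimmed adapters, aligned reads with the Omicsoft aligner to mouse genome build 38 (mm10) and deposited 1 table of estimated counts per gene symbol, not normalized, in which 6.5 to 8.24% of the values are not whole. Whether strand was used in counting is not given in the sources used here. Counts were rounded. Each of the 16 columns was matched to a library by its title, with 0 columns left over. The submitters' processing notes also name edgeR 3.30.3 in R 4.0.3.

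Genes whose mean reached 1 CPM were fitted in R 4.3.3 with edgeR 4.0.16 (TMM scaling, quasi-likelihood test, Benjamini-Hochberg adjustment over all genes, threshold 0.05), with content, treatment within content and survival within content as terms over the 15 lung- or liver-content libraries. Genotype was fitted among live and among dead libraries with content by treatment as cells. The comparison by label used log2 ratios with a prior count of 0.125 and a 2-fold criterion, with no test. Log2 differences are given with SE. Per-kilobase levels divide by the length of 1 annotated transcript per gene. Principal protein-coding transcripts were preferred, and that of median length among them was used. The script was tested on simulated counts.

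Alternatives were DESeq2 1.42.0, other scalings, other filters, other covariates, a block for the pool, and leaving out libraries. The scaling without *Rn45s* and the fit without 4 liver-content libraries with skeletal muscle markers were chosen after seeing the data. Members named are the 11 core subunits, the isoforms with their partners, the 3 largest called changes each way among members with a mean of at least 10 CPM, and the 2 genes that are not subunits. Of the core subunits, 1 is not reported here. Others were named after their values were seen. The members and lists were chosen with earlier results of these data known.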

Additional observations from a re-analysis of the deposited data

Results flagged for a closer look

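In 60 sets of 7 or 8 libraries of 1 content that were examined with Dixon's criterion, 2 had a library far from the rest, where chance gives about 1 in 20. The lung-content library labelled live heterozygous NAC lung had *Sdha*, the flavoprotein of complex II, at 67.1 scaled CPM, and the nearest other lung-content library (live WT NAC lung) at 94.3. The same library had the muscle isoform *Cox6a2* at 0.418, from 3 raw counts, and the nearest (dead heterozygous NAC, labelled liver) at 2.498. The cardiac marker sum of 140 in the flagged library was also the lowest of the 7 lung-content libraries. It had the lowest depth of the series (7236865 counts) and the highest *Rn45s* share (26.2%). The part of these in *Sdha* and *Cox6a2* was not tested.

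Groups also went opposite ways in the comparison by label, which was not tested since each side is 1 library. Under the lung label, the members' median log2 ratio of NAC to placebo in live pups minus that in dead pups was −2.94. In live pups, the ratio under the lung label minus that under the liver label was −3.31. In these pairs NAC libraries under the lung label held lung RNA in live pups and liver RNA in dead pups, so treatment and content cannot be told apart.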

How the results depend on the processing

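Between contents, 78 members were called, with 77 to 78 on leaving out each library in turn, 73 by library size alone (4 higher, 69 lower), 67 without *Rn45s* in the library size (4 higher, 63 lower) and 75 to 80 in the other settings, with 64 of the 78 calls kept in all 28 settings. The all-gene median moved from −0.10 to 0.56 by library size alone and 0.74 without *Rn45s*, and the members' median from −1.57 to −0.92 and −0.74, so that their difference stayed at −1.47 to −1.49. Members at least 2-fold lower went from 73 to 34 and 22 under these 2 scalings and were 72 to 74 on leaving out each library. *Cox7a2l* reversed to 0.42 and 0.60 under these scalings, and *Ndufc2* went to 0.18 (not called) without *Rn45s*. With the pool as a replicate block, over the 6 pools with both contents, 78 members were called.

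NAC against placebo in lung-content libraries went from 0 members called to 1 in live pups only (*Uqcrfs1*) and to 1 without the liver-content libraries with skeletal markers (*Ndufb6*, 0.49 ± 0.13, edgeR adjusted p = 0.0345), and was 0 to 0 on leaving out each library in turn, as were the other comparisons of treatment, survival and genotype. The median of NAC against placebo in lung-content libraries went from 0.06 to −0.16 by library size alone, with −0.24 over all genes. By label, library size alone left 5 of 82 members past 2-fold in live WT liver (63.6% of all genes), 38 of 80 in live heterozygous liver (54.2%), 16 of 82 in dead heterozygous lung (55.8%), 16 of 80 in dead heterozygous liver (54.1%) and 1 of 82 in dead null lung (49.4%), where relative log expression factors left 13. The cause was not tested. Depth limits the isoforms with few counts, and 1 pooled library per group limits every comparison.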
